A study of Homo sapiens with 3 samples.

Results

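Replication-dependent histone genes encode the core histones H2A, H2B, H3 and H4 and the linker histone H1 that package newly copied DNA. They are short, lack introns in their classical form, are transcribed mainly in S phase and lie in dense clusters, and their mRNAs end in a stem-loop in place of a poly(A) tail. Within the clusters many H2A and H2B genes stand head to head and share a promoter between them. Binding of MECOM, or EVI1, a transcription factor with zinc fingers, to DNA at these genes was described from an annotated peak list. Members were the peaks whose assigned gene symbol was that of an H1-1 to H1-6, H2AC, H2BC, H3C or H4C gene, or an older symbol of that family. This gave 13 of the 3462 peaks, assigned to 12 of the 69 such genes in RefSeq. A further 2 genes of the family, H2AC25 and H2BC26, stand in the list as H2AW and H2BU1 and carried 3 more peaks, which are described apart.

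The libraries came from HEK293T cells, a human embryonic kidney line, that had been given wild-type MECOM, the R750W form of MECOM or the empty pMYS-IG vector, with 1 library in each group. Chromatin was precipitated with an antibody against the AM tag, a short peptide fused to the protein, so it was directed at the introduced protein. The peaks are those of the wild-type MECOM library; the lists of the R750W and vector cells were not analysed here. No peak value therefore has a replicate or a matched vector value, and the cell type cannot be checked against marker genes in a list of binding sites.

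The promoters of the genes with the 3 highest peaks, and of 2 H4 genes, show the sequence beside or under the peaks. Each is 250 bases before to 50 bases after the gene start, 5′ to 3′ on the strand of the gene, from RefSeq on GRCh38.p14. Capitals mark 4 motifs on either strand. The letters CCAAT are a general promoter element, as is the TATA box TATAAA. The octamer ATTTGCAT is bound by POU2F1 and its relatives. The letters GGTCCG lie in the element of H4 promoters that HINFP, an activator of H4 genes, is known to bind.
H2BC17, chromosome 6, 27893175 to 27893474, plus strand: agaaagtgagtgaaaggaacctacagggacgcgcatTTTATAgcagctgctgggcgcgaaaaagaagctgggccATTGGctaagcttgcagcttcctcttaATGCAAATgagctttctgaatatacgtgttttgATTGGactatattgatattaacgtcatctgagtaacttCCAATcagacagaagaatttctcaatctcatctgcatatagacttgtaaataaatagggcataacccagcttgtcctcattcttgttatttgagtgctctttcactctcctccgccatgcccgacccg
H2AC15, chromosome 6, 27838326 to 27838625, minus strand: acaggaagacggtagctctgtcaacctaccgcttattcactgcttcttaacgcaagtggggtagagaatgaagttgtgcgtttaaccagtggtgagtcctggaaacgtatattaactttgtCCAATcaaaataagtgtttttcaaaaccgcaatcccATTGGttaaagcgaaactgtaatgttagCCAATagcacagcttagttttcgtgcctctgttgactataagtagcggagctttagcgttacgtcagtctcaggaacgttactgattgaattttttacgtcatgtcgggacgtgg
H2BC5, chromosome 6, 26157871 to 26158170, plus strand: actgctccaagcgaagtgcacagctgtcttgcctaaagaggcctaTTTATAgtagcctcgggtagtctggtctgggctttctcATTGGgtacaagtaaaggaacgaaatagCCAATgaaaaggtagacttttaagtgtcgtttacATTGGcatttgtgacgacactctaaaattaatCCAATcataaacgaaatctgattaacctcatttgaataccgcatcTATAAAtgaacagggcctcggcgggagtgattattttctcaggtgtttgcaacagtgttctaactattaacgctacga
H4C11, chromosome 6, 27823842 to 27824141, plus strand: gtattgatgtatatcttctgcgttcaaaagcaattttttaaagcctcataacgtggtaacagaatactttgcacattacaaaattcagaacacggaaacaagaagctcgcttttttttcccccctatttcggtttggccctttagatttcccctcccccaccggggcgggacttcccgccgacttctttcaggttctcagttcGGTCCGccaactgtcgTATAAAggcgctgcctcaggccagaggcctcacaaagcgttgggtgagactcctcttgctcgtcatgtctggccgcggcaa
H4C14, chromosome 1, 149832407 to 149832706, plus strand: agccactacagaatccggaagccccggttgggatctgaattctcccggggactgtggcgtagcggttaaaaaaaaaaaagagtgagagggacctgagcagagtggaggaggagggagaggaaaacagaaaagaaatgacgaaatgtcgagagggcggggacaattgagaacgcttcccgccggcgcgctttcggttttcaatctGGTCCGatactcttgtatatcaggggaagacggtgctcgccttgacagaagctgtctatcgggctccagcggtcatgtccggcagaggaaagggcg

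Fold enrichment is the authors' ratio of fragments at a peak to the local background. Over the 13 peaks it ran from 2.86 to 7.31 with a median of 5.12, against a median of 4.82 over all 3462 peaks. The peaks rested on 13 to 34 fragments (median 21), against a median of 18 over all peaks, and on backgrounds of 1.75 to 9.49 fragments (median 2.96), against 2.92. Their widths ran from 277 to 793 bp, with a median of 554 bp against 414 bp over all peaks. Of the 13, 8 were at or above the list's median fold. The exact 95% Poisson interval lay wholly above that median for 1 member peak (7.69%), against 189 of all peaks (5.46%), and wholly below it for 1. Among the 78 pairs of member peaks, 5 had intervals that did not overlap, and each of these set H4C15 against H2BC5, H2BC13, H4C11, H2AC15 or the higher H2BC17 peak. The other members could not be ranked at this depth. H4C15 cannot be ranked firmly either, because its promoter is identical to that of H4C14 and their split of fragments is uncertain, as described below. All intervals cover the counting error of the precipitated fragments alone.

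**Figure D1:**
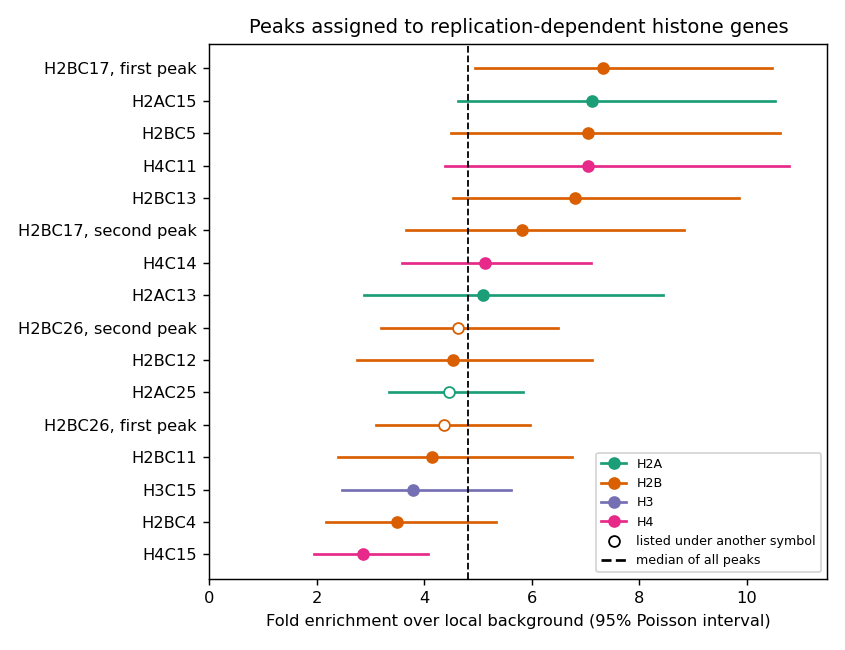
Fold enrichment over local background (horizontal axis) of each peak assigned to a replication-dependent histone gene in the wild-type MECOM library, with 95% Poisson intervals as lines, colours by histone type and open circles for the 3 peaks listed under another symbol. The dashed line is the median of all peaks, 4.82, which crosses most of the intervals.

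H2B genes carried most of the peaks. The highest belonged to H2BC17, on chromosome 6 from 27893478 to 27893823 (ENSG00000274641). It had 28 fragments over a background of 2.96, an enrichment of 7.31-fold (95% interval 4.95 to 10.5), and was the member peak whose interval lay wholly above the list median. The peak covered 74.1% of the RefSeq gene, from 53 to 398 bases after its start. A second H2BC17 peak began 275 bases further on, from 27894099 to 27894891, with 20 fragments over 2.61 (5.82-fold, 3.66 to 8.83). It lay past the gene's end, 674 to 1466 bases after the start, and was the widest member peak at 793 bp. A peak not assigned to a histone gene followed after another 478 bases, from 27895370 to 27895717, at 8.10-fold (5.44 to 11.7, 27 fragments). The H2BC17 start therefore stood at the head of a run of 3 peaks, the last of which was assigned to ENSG00000238610.

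H2BC5 had a peak from 26158254 to 26158765 on chromosome 6, with 21 fragments over a background of 2.12 (7.05-fold, 4.49 to 10.6). It lay 133 to 644 bases after the start. H2BC13 had a peak from 27807310 to 27807933 with 26 fragments over 2.96 (6.81-fold, 4.54 to 9.86). That peak began 4 bases before the start and covered the gene whole. H2BC12 had 17 fragments over 2.96 (4.54-fold, 2.75 to 7.12), in a peak from 27145416 to 27145992. This peak lay downstream of the Ensembl gene in the deposited annotation but inside the longer RefSeq gene, 866 to 1442 bases after its start. H2BC11 had 14 fragments over 2.63 (4.14-fold, 2.39 to 6.75), from 27129924 to 27130257. The deposited annotation placed it inside the Ensembl gene, whereas it lay 2538 to 2871 bases after the RefSeq start, outside the RefSeq gene of 480 bp. H2BC4 had the lowest of the H2B peaks, from 26123463 to 26123777, with 19 fragments over 4.74 (3.48-fold, 2.17 to 5.34), at 149 to 463 bases after the start. The 7 H2B peaks thus ran from 3.48 to 7.31-fold, and all of their intervals overlapped.

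H2A genes had 2 peaks. The peak assigned to H2AC15, on chromosome 6 from 27838629 to 27839257, had 23 fragments over a background of 2.37 (7.12-fold, 4.62 to 10.5). It lay wholly upstream of H2AC15, whose promoter is printed above, and covered 88.9% of H2BC15, the H2B gene on the other side of that promoter, at 60 to 688 bases after its start. The start sites of H2AC15 and H2BC15 are 194 bases apart. H2BC15 itself was assigned no peak, so the name attached to this peak and the gene it covers differ. H2AC13 had a peak from 27808325 to 27808618 with 13 fragments over 1.75 (5.09-fold, 2.88 to 8.45), the fewest fragments of any member. It covered 59.4% of the gene, from 152 to 445 bases after its start. H2AC13 and H2BC13 form a divergent pair with starts 244 bases apart, and their peaks stood on either side of the shared promoter, 391 bases from each other. Both genes of that pair were therefore assigned a peak of their own, over the gene and hardly over the promoter: the H2BC13 peak overlapped its 300-base promoter window by 54 bases and the H2AC13 peak not at all.

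H4 genes had 3 peaks, in 2 kinds of position. H4C11 had a peak on chromosome 6 from 27824014 to 27824619 with 19 fragments over 1.84 (7.04-fold, 4.38 to 10.8), which covered the whole gene from 78 bases before to 527 bases after its start. H4C14, on chromosome 1, had a peak from 149832186 to 149832919 with 34 fragments over 5.84 (5.12-fold, 3.59 to 7.10). H4C15, on the same chromosome, had a peak from 149860967 to 149861520 with 29 fragments over 9.49 (2.86-fold, 1.95 to 4.07). The peaks of H4C14 and H4C15 each covered all 300 bases of the promoter window and were the only member peaks to do so. The H4C14 and H4C15 promoters are the same in all 300 letters, which is why only the first is printed. Reads from that stretch cannot be told apart between the genes, and the authors' treatment of reads with several places is not stated, so the split of fragments between these 2 peaks is uncertain. H4C11 and H4C12 share 98.3% of their promoter letters. H4C12 was assigned no peak and lay 6555 bp from the nearest one. Only 128 bases of the H4C11 peak lie in the compared window, and whether its reads also match H4C12 was not examined. That distance therefore does not show that H4C12 was unbound.

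Among the H3 genes, H3C15 was assigned a peak, and none was assigned to an H1 gene. The H3C15 peak, on chromosome 1 from 149851727 to 149852003, had 23 fragments over 5.34 (3.79-fold, 2.46 to 5.60). It lay 605 to 881 bases before the H3C15 start and 133 bp from H2AC19, between these genes and inside the long RefSeq span of H4C15. This stretch of chromosome 1 is duplicated: promoter letters of H3C14 and H3C15 agree at all 296 positions compared, and those of H2AC18 and H2AC19 at all 299. The copies H3C14 and H2AC18 lay 7768 and 8977 bp from the nearest peak. Whether the reads of the H3C15 peak also match the stretch by these copies was not examined. The distances therefore do not show that the copies were unbound. Of 421 promoter pairs within a histone type, these 3 pairs, H4C11 with H4C12 and H2AC13 with H2AC14 (84.0%) were those alike in over 80% of letters; the median pair shared 33.7%.

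The 3 member peaks on chromosome 1 had backgrounds of 5.34 to 9.49 fragments, and the 10 on chromosome 6 had 1.75 to 4.74. Over all peaks the median background was 3.56 on chromosome 1 and 2.96 on chromosome 6. The median fold of the members was 3.79 on chromosome 1 and 6.31 on chromosome 6, over all peaks 4.61 and 4.91. The member peaks rested on 23 to 34 fragments on chromosome 1 and on 13 to 28 on chromosome 6. Only called peaks are compared, and a peak over a higher background needs more fragments to be called. Why the fold was lower on chromosome 1 was not tested. The part of the duplicated sequence in that background was not tested.

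**Figure D2:**
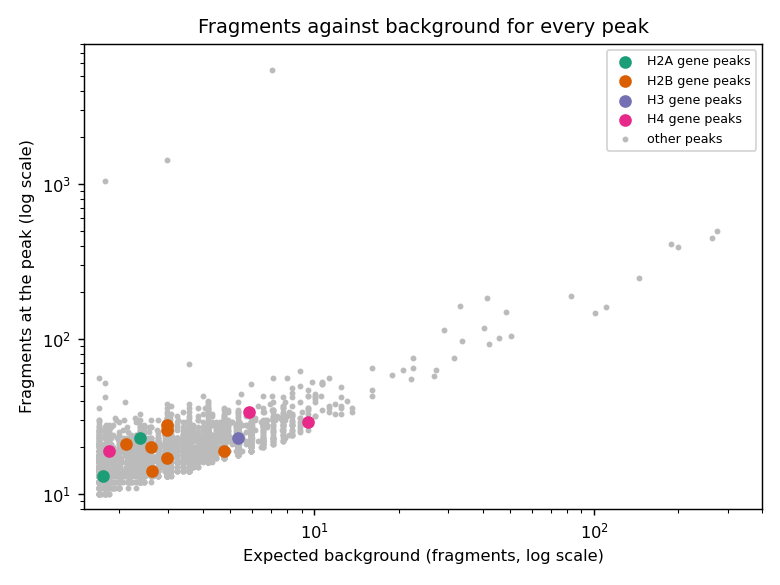
Fragments at each peak against the expected background, both on log scales, with coloured points for the 13 histone gene peaks by type and grey points for the other peaks. The histone gene peaks sit within the main cloud, between 13 and 34 fragments.

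H2AC25 and H2BC26, another divergent pair, lie on chromosome 1 with starts 230 bases apart and were listed as H2AW and H2BU1. H2AC25 had a peak from 228457292 to 228457831 with 51 fragments over 10.7 (4.46-fold, 3.34 to 5.83), more fragments than any peak that the symbols alone selected. It covered 91.8% of the gene. H2BC26 had a peak from 228458130 to 228458542 with 37 fragments over 7.71 (4.36-fold, 3.11 to 5.97), which covered 90.6% of the gene. As at H2BC17, a second peak followed past the end of H2BC26, 533 bases on, with 31 fragments over 5.93 (4.62-fold, 3.18 to 6.49). As at H2AC13 and H2BC13, the shared promoter between the pair was left almost free, with 8 and 23 bases of the windows covered.

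The middle of the peak was downstream of the start of the assigned gene for 9 of 13 member peaks, and 4 of 13 reached into the promoter window. Neither count was worked out over all peaks. In the deposited classes, 38.5% of member peaks lay inside the gene, against 40.4% of all peaks with a gene. A further 15.4% lay downstream of the gene, against 11.4%. In all, 6 of 13 peak centres (46.2%) fell within 500 bases after the start, and 2 of 13 (15.4%) fell within 500 bases before it. Among 1883 other peaks with a named gene and a RefSeq start, these shares were 31.8% (599 peaks) and 16.9%. A peak covering an assigned gene whole was found 13 times among the 3419 peaks with a gene, and 2 of these were H2BC13 and H4C11. Such a class depends on gene length, and these genes are 451 and 389 bp long. By the deposited distances, 11 of 13 member peaks began within 1000 bp of the gene start (84.6%, exact 95% binomial interval 54.6 to 98.1), against 1904 of 3419 (55.7%). That interval treats the peaks as independent, which peaks of the same gene or of neighbouring genes are not, so it is too narrow a guide. No member peak began over 5000 bp away, against 877 of the 3419 (25.7%). The deposited distances of the member peaks run from the lower coordinate of the peak, which on the minus strand is its downstream edge. For H2BC13 the distance was 621 bp, although its peak reached 4 bases before the RefSeq start. The distances also depend on the assignment to the nearest gene, since most assigned members are short genes in dense clusters. The RefSeq spans of H2BC4, H2BC5, H2BC12 and H4C15 are longer, from 8566 to 16753 bp. The distances were not set against genes of like length and spacing, so no preference for starts can be read from them.

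**Figure D3:**
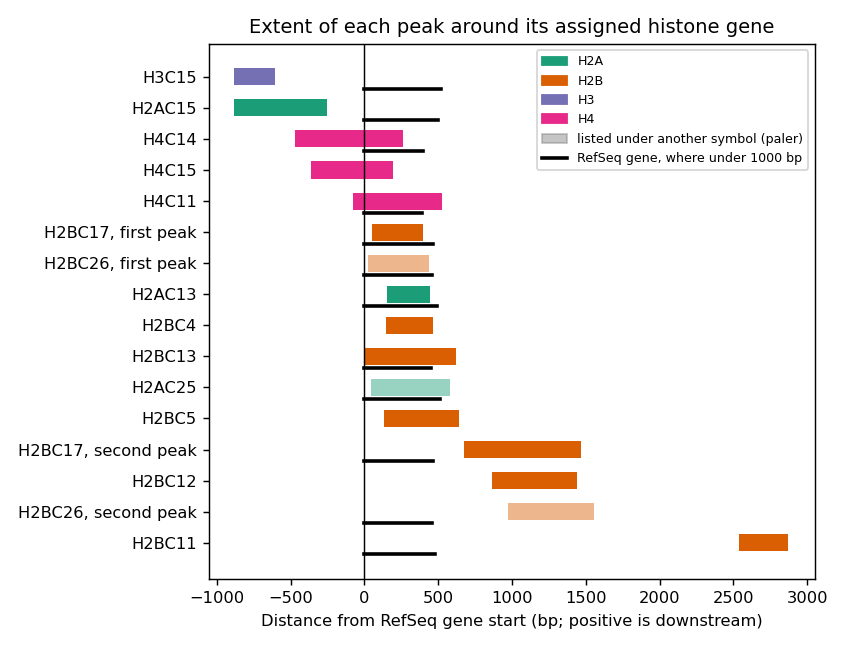
Extent of each peak, as a bar, in bp from the RefSeq start of its assigned gene (positive is downstream), with the gene as a black line where it is under 1000 bp. Most bars lie over or just past the gene, the H4C14 and H4C15 bars span the start, and the H2AC15 bar lies upstream because it covers the neighbouring H2BC15.

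By type, an assigned peak was found at 6 of 18 H2B genes (33.3%), 3 of 15 H4 genes (20.0%), 2 of 17 H2A genes (11.8%), 1 of 13 H3 genes (7.69%) and 0 of 6 H1 genes. In all, 12 of 69 genes (17.4%) were assigned a peak, against 9.76% of 20052 protein-coding genes. With H2AC25 and H2BC26 the count was 14 of 69, against 9.93% when other RefSeq symbols were matched for every gene. They raised the H2A count to 3 of 17 (17.6%) and the H2B count to 7 of 18 (38.9%). Peaks that began within 1000 bp of the gene start were assigned to 10 of the 69 (14.5%), against 6.93% of protein-coding genes. Peaks with a q of at most 1e-05 were assigned to 6 (8.70%), against 5.40%, and peaks at or above the median fold to 7 (10.1%), against 4.94%. A RefSeq span widened by 1000 bp on each side overlapped a peak at 17 of the 69 (24.6%), against 13.7%. Head-to-head genes share neighbours, and the table assigns each peak to a single gene, so H2A and H2B counts are not independent of each other.

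By place in the genome, the counts were small in each cluster and are set against the 9.76% of all protein-coding genes. In the 34 genes on chromosome 6 from 25726063 to 26285534, 2 were assigned a peak (5.88%), H2BC4 and H2BC5. In the 5 genes from 27132316 to 27147562, 2 were, H2BC11 and H2BC12, and in the 16 genes from 27807479 to 27893891, 5 were (31.2%): H2BC13, H2AC13, H4C11, H2AC15 and H2BC17. The 6 peaks of that last group had a median of 6.92-fold (5.09 to 7.31), and the 4 other chromosome 6 peaks a median of 4.34-fold (3.48 to 7.05). The intervals of all these peaks overlapped each other. The last group also includes both H2BC17 peaks and those of the neighbouring H2BC13 and H2AC13. The medians are therefore not read as a difference between the groups. In the 11 genes on chromosome 1 from 149782689 to 149887965, 3 were assigned a peak (27.3%). H4C16, alone on chromosome 12, was the member farthest from any peak, at 1111418 bp.

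**Figure D4:**
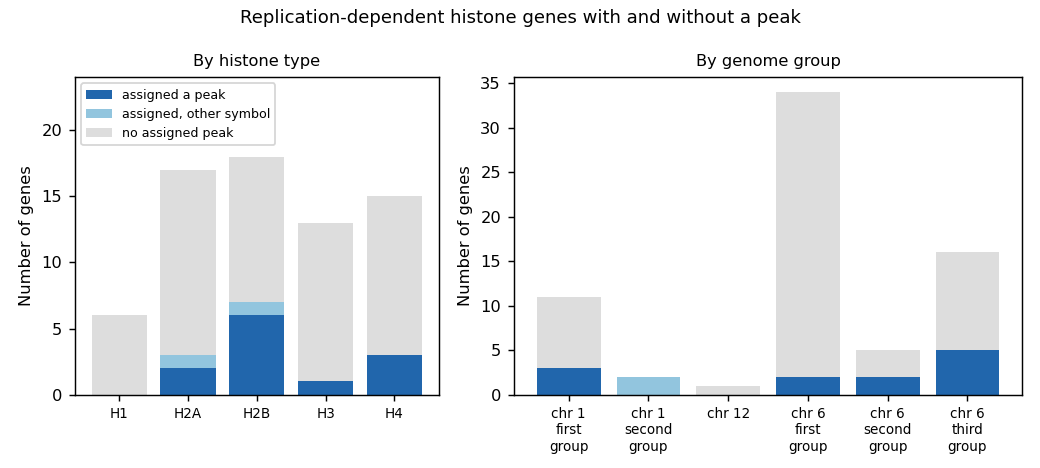
Number of replication-dependent histone genes (vertical axis) with an assigned peak, with a peak under another symbol and with none, by histone type on the left and by genome group on the right. The 34 genes of the first chromosome 6 group hold 2 genes with a peak and the 16 of the third group hold 5.

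No peak was assigned under any symbol to 55 genes. Of these, 4 held a peak or lay within 1000 bp of one: H2BC15, H2AC19 (133 bp), H2AC17 (293 bp) and H2AC6 (395 bp), each a neighbour of a gene that took the peak. For 40 of the 55, the nearest peak was over 10000 bp away, and the median distance was 25890 bp. The linker histone gene H1-4 lay 1139 bp from the H2BC5 peak.

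Transfer RNA genes are interspersed with the histone genes of chromosome 6, where RefSeq places 98 of them between the first and the last histone gene. Of the 43 peaks in that stretch, 9 were assigned to histone genes, 28 lay within 1000 bp of a transfer RNA gene and 6 did neither. None of the 13 histone gene peaks lay within 1000 bp of a transfer RNA gene; the nearest was the second H2BC17 peak, at 7602 bp. Of the 13, 3 lie on chromosome 1, outside that stretch. The separation is not read as a trait of the histone gene peaks. Assignment by nearest location may in part bring it about. No share of all peaks within 1000 bp of a transfer RNA gene and no expected share were worked out.

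Promoter windows were held for 64 of the 69 genes, including all 12 with an assigned peak, and each motif was searched on both strands. CCAAT was found in 54 of 64 (84.4%), against 35.7% of 27305 promoters of all genes, and TATAAA in 42 (65.6%), against 12.0%. CCAAT was present in every H1, H2A, H2B and H3 window and in 3 of 13 H4 windows. The H2BC5 window printed above holds it 4 times, and those of H2BC17 and H2AC15 3 times each. The octamer ATTTGCAT was found in 14 of 18 H2B and 11 of 16 H2A windows (77.8% and 68.8%), against 1.80% of all promoters; windows of head-to-head pairs overlap, so a shared octamer counts for both. In the 150 bases before the start it was found in 14 of 18 H2B but 5 of 16 H2A windows (31.2%). GGTCCG, searched after the sequences had been seen, was found in 12 of 13 H4 windows (92.3%), against 11.2% of all promoters. In these 12 it began 44 to 47 bases before the start, as in the H4C11 and H4C14 windows. Genes with and without an assigned peak both carried the general elements: CCAAT was in 9 of 12 windows with a peak (75.0%) and 45 of 52 without (86.5%), and TATAAA in 9 of 12 and 33 of 52.

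The GATA-type motifs known for MECOM were found at shares near the background. GATAAG, the GATA-type site of the first zinc finger domain, was found in 0 of the 12 windows of genes with a peak, in 3 of 52 windows without (5.77%), in 6.36% of all promoters and in 5.15% of those of protein-coding genes. The related AGATAA, which can overlap GATAAG by 5 letters, was found in 1 of 12 (H2AC13), 4 of 52, 10.5% of all promoters and 7.57% of those of protein-coding genes. GAAGATGAG, for the second zinc finger domain, was found in 0 of the 64 windows and in 0.348% of all promoters. The ETS core GGAAG was found in 9 of 12 windows with a peak (75.0%), 19 of 52 without (36.5%) and 71.9% of all promoters. The AP-1 site TGAGTCA was found in 0 of 64, against 4.92% of all promoters, and another HINFP-type core, CGTCCG, in 0 of 64, against 9.33%. A match is only a run of letters. The windows held the sequence under the H4C14 and H4C15 peaks in part, 300 bases each, with 128 bases under the H4C11 peak and 54 under the H2BC13 peak. The other 9 peaks did not reach the window of their gene, and the sequence under them was not examined because no genome sequence was used here.

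Peaks were also counted at genes that act on the family or encode other histones. Of 26 genes of histone transcription and pre-mRNA processing, a list that includes NPAT, CASP8AP2, SLBP and the LSM10 and LSM11 subunits of the U7 particle, HINFP was the 1 assigned a peak (3.85%). It lay across the start of HINFP on chromosome 11 from 119121436 to 119122036, with 30 fragments over 1.95 (10.5-fold, 7.20 to 14.9). Of 21 replication-independent histone variant genes, 2 were assigned a peak (9.52%). MACROH2A2, the gene of a macroH2A variant, had one across its start (3.49-fold, 2.12 to 5.48). Of 20 histone chaperone genes, NAP1L1 was the 1 assigned a peak (5.00%), inside the gene (4.17-fold, 2.56 to 6.46). With 1 or 2 genes in each list, these shares cannot be told from the 9.76% of all protein-coding genes.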

How the data were processed

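The study made 3 ChIP-seq libraries, 1 per group. The submitters' processing notes name hg38, Bowtie2 2.4.2, MACS2 2.1.1.20160309.6 and ChIPseeker 1.18.0, without roles. The deposited peak list has no header and was linked to the wild-type library by its genotype name alone. It holds 3465 lines, of which 3 repeat a peak. Its deposited fold enrichment is a ratio to local background, its deposited −log10 p-value is that of the peak caller, as is the deposited −log10 q-value (lowest 2.00), and its deposited score is the whole part of 10 times −log10 q. The authors assigned 3419 of the peaks to an Ensembl gene by nearest location, per the values of the deposited list, and 43 have no gene. No column of values (0) was left without a group.

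The fold was read as (fragments + 1)/(background + 1), and the whole number of fragments was sought whose Poisson tail matched the −log10 p within 0.001. A single solution existed for all 3462 peaks, and the method was tested on simulated data. The deposited values do not state whether that number is the depth at a single position or a total over the peak. Intervals are exact 95% Poisson intervals with the background held fixed. Library totals are not stated in the labels or the file. Gene spans, types, other symbols and promoters came from RefSeq on GRCh38.p14, with the first listed promoter of each gene. Promoter likeness was counted letter by letter at the best shift of up to 60 bases.

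The members and lists were chosen with earlier results of these data known. Every member with a peak is named, as is every other listed gene with a peak except 1 that is not reported here. No test was made, since there is 1 list without replicates and peaks and neighbouring genes are not independent. Alternatives were a q of at most 1e-05, peaks at or above the median fold, peaks within 1000 bp of a start, RefSeq spans widened by 1000 bp, other distances and a shorter promoter window. A planned print of protein sequences was not made. Python 3.11.15, pandas 2.3.3, numpy 2.4.6, scipy 1.17.1 and matplotlib 3.10.9 were used.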

Additional observations from a re-analysis of the deposited data

How the results depend on the processing

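The count of 12 replication-dependent histone genes was 6 at a q of at most 1e-05 (5.40% of protein-coding genes) and 7 among peaks at or above the median fold (4.94%); both settings keep fewer peaks. It was 10, 11, 14 and 17 in the 4 other settings, of which the inclusion of other symbols (14) was chosen after the data were seen. With spans widened by 1000 bp the 17 of 69 stood against 13.7% of protein-coding genes. The share of member peaks near a start, 84.6%, was 100% under both stricter settings. The median fold of 5.12 became 7.04 at the stricter q and 6.92 among peaks at or above the median fold. The first setting favours higher folds and the second keeps only them, so a rise was built in. It was 5.11 with the highest peak of each gene and 4.85 with other symbols included. These values lay inside the counting interval of the median peak, which does not measure the spread of a median. The members' median percentile was 60.1 by fold and 76.7 by −log10 q. Processing genes numbered 2 with widened spans (NCBP1 added). Variant genes numbered 1 near a start, 1 at the stricter q and 0 at or above the median fold, and chaperone genes numbered 0 in each of these 3 settings. In the 150 bases before the start, AGATAA was found in 1.56% of members' windows in place of 7.81%, and GGAAG in 31.2% in place of 43.8%; a shorter window holds fewer matches. Of 36 alternative values, the other 23 stayed within 1.5 times a count or inside the interval of the main value. No paired analysis was possible because the groups hold 1 library each and the values come from the wild-type list alone. With a median of 21 fragments, member peaks can hardly be ranked.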
